A study of Mus musculus with 6 samples.

Results

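The sodium-potassium pump genes described here are Atp1b1, Atp1b2, Atp1b3 and Atp1b4, the 4 genes named as beta subunits, and Fxyd1, a small regulator of the pump. They are 5 of 49315 genes in the count tables. They were selected by gene symbol from a pump family that was chosen on earlier results of the same mKO against WT contrast, so every mKO against WT value below is a description. Genes of the catalytic alpha subunits are not analysed here. RNA of the gastrocnemius, the large calf muscle, was sequenced from 3 libraries labelled mKO and 3 labelled WT. All came from mice of a mixed C57BL/6 and 129 background at 3 months of age. The mKO mice carry a knockout of Hnrnpu, which encodes a nuclear RNA-binding protein, in muscle only. Which promoter drove the deletion and which exons it removed is not given in the sources used here. No label ties a replicate number to an animal, so the p-values describe only how far these libraries spread, which may be technical.

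The sodium-potassium pump uses ATP to move sodium out of the cell and potassium in. In muscle fibres it restores the ion gradients after each action potential. A catalytic alpha subunit carries the ions, a glycosylated beta subunit brings it to the membrane, and a protein of the FXYD family tunes its activity. In skeletal muscle that protein is phospholemman, the product of Fxyd1, which restrains the pump until kinases phosphorylate it. Atp1b4 is an exception in placental mammals: its product, BetaM, sits in the inner nuclear membrane of muscle fibres rather than in the pump and has been linked there to gene regulation. It is known as most abundant in muscle around birth.

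Total counts were 32108684 to 38095211 in mKO libraries and 34871043 to 42344238 in WT libraries. Of 16650 genes tested with the quasi-likelihood test of edgeR (Benjamini-Hochberg adjusted p under 0.05), 3022 were higher and 3144 lower. TMM factors scale the libraries to the bulk of their genes. Scaled by library totals instead, 8159 genes were higher and 1124 lower, and the median over all genes shifted by 0.47 on the log2 scale. Hnrnpu itself averaged 208 ± 2.92 CPM in mKO libraries and 239 ± 7.59 CPM in WT libraries (SD, n = 3 each). Its log2 fold change was -0.20 (edgeR adjusted p = 0.147), and with library totals it had the opposite sign and was called (0.27, edgeR adjusted p = 0.0402). A count over all exons does not check a deletion of some of them. Each direction below is that between the libraries labelled mKO and those labelled WT. The 8 markers of skeletal muscle were abundant in every library, with summed CPM of 51141 to 58066 in mKO and 121278 to 133951 in WT.

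Among the 5 genes, Atp1b4 was about 10-fold higher in mKO muscle, Atp1b1 and Fxyd1 were each lower by less than 2-fold, and Atp1b2 and Atp1b3 passed no threshold. All 5 passed the filter on low counts. Called genes numbered 1 higher and 2 lower of 5, where 18.2% of all genes tested were called higher, 18.9% lower and 37.0% in either direction. The groups did not overlap for 3 of the 5 genes, against 49.3% of all genes tested. Since the family was picked on this contrast, nothing is read from these counts.

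The promoters of the beta genes with the largest difference in each direction, Atp1b4 and Atp1b1, are shown to place the results in the genome. Each line gives the 250 bases before the RefSeq start in GRCm38.p6, read 5′ to 3′ on the gene's own strand. Capitals mark CANNTG (the E-box, bound by myogenic factors among others) and CCAAT, searched on both strands.
Atp1b4, chrX:38315872-38316121, plus strand: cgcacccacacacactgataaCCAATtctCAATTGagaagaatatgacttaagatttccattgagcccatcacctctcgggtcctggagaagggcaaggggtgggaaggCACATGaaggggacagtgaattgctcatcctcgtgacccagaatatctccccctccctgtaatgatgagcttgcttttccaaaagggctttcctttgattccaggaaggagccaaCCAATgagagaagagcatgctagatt
Atp1b1, chr1:164458356-164458605, minus strand: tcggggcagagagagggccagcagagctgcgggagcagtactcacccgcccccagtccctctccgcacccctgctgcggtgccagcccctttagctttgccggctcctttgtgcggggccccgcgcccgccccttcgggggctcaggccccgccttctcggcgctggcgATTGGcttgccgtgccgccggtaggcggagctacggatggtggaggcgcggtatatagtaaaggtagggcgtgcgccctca

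The Atp1b4 window held 2 E-boxes, whose first bases lie at -221 and -141 from the start, and 2 CCAAT matches, at -229 and -26. The Atp1b1 window held no E-box and 1 CCAAT match, at -81 and read on the opposite strand. The windows also differed in base composition, with 48.4% G and C for Atp1b4 and 70.4% for Atp1b1. These short motifs are common: of 32851 RefSeq windows of this length, 66.2% held an E-box and 33.8% a CCAAT. The TATA box was searched in the same way, only as the exact letters TATAAA, and matched neither window, against 12.4% of all windows. Variants were not searched, and the Atp1b1 window holds the letters tatata near its end. Both RefSeq windows of Atp1b3, which was not called, held 1 E-box, and that of Fxyd1, which was lower, held none. No binding was measured here. The start used for Atp1b4 lies 62 bp before the first exon base in the count files, whereas for Atp1b1 the starts are the same base. For Fxyd1 the RefSeq start lies 2346 bp inside the counted gene, so its window does not lie before the first exon base. The starts of the Atp1b3 windows lie 11 and 727 bp inside the counted gene.

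Atp1b4 (ENSMUSG00000016327) is on the plus strand of chromosome X, from 38316184 to 38336769 in GRCm38, and its 8 merged exons overlap those of no other gene. It had 46.8, 50.2 and 61.8 CPM in mKO replicates 1 to 3, against 4.34, 6.44 and 4.62 CPM in WT replicates 1 to 3. All mKO libraries were far above all WT libraries, and mKO replicate 3 was the highest. The means were 52.9 ± 7.85 CPM in mKO and 5.13 ± 1.14 CPM in WT (SD, n = 3 each). The fold was 10.3 (log2 3.36, SE 0.17, edgeR adjusted p = 9.03e-08). By this fold, Atp1b4 ranked 133 among the 3022 genes called higher. Raw counts behind these values were 2126 to 2289 in mKO libraries and 130 to 210 in WT libraries, so counting error was small beside the difference.

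Atp1b1, which encodes the widespread beta subunit and the major one in slow and oxidative fibres of rodents, fell in mKO muscle. The gene (ENSMUSG00000026576) is on chromosome 1, minus strand, at 164437109 to 164458355. It had 67.1, 58.4 and 71.5 CPM in mKO replicates 1 to 3, against 105, 129 and 105 CPM in WT replicates 1 to 3. The highest mKO library stayed below the lowest WT library, and WT replicate 2 stood above the other WT libraries. The means were 65.7 ± 6.66 CPM in mKO and 113 ± 13.6 CPM in WT (SD, n = 3 each). On the log2 scale the difference was -0.78 ± 0.12 (SE; edgeR adjusted p = 0.000374), which is 1.72-fold lower. With library totals it was 1.24-fold lower (log2 -0.32, edgeR adjusted p = 0.0445). Of its exon bases, 575 of 3081 are shared with exons of the neighbouring gene Nme7, where reads cannot be assigned to 1 gene without strand. Nme7 had only 2.73 ± 0.468 CPM in mKO and 3.32 ± 0.663 CPM in WT (SD, n = 3 each).

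Fxyd1 (ENSMUSG00000036570; minus strand of chromosome 7, 31051678 to 31057199), the gene for phospholemman, also fell. It had 164, 158 and 169 CPM in mKO replicates 1 to 3, against 275, 268 and 254 CPM in WT replicates 1 to 3. The groups lay far apart compared with the spread within each. The means were 164 ± 5.18 CPM in mKO and 265 ± 10.5 CPM in WT (SD, n = 3 each). On the log2 scale the difference was -0.70 ± 0.10 (SE; edgeR adjusted p = 0.000223), 1.62-fold lower. The call was lost with library totals (log2 -0.23, 1.17-fold lower, edgeR adjusted p = 0.0756), where the mean was 192 ± 6.34 CPM in mKO and 226 ± 10.8 CPM in WT (SD, n = 3 each).

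**Figure D1:**
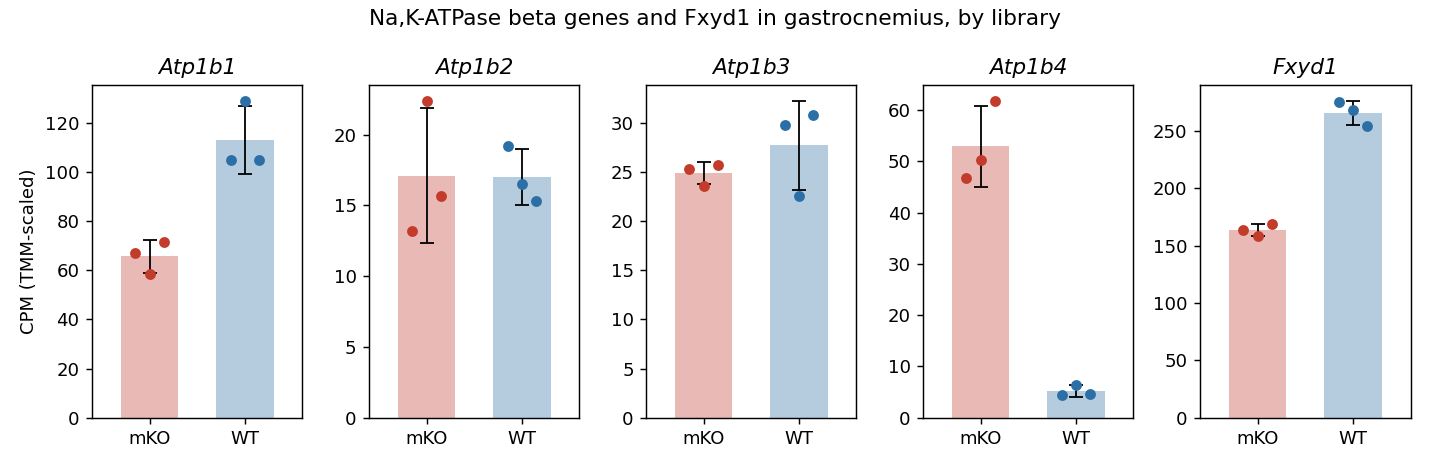
TMM-scaled CPM of the 5 genes, 1 panel per gene with its own axis from 0. Points are the 3 libraries of mKO (left) and WT (right), bars the mean and whiskers 1 SD. Atp1b4 sits at 46.8 to 61.8 CPM in mKO and 4.34 to 6.44 CPM in WT, Atp1b1 and Fxyd1 are lower in every mKO library, and the groups overlap for Atp1b2 and Atp1b3.

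Atp1b2, which encodes a beta subunit of fast glycolytic fibres that was first described as an adhesion molecule of glia, showed overlapping groups. The gene (ENSMUSG00000041329) is on chromosome 11, minus strand, at 69599736 to 69605942. It had 13.2, 22.4 and 15.7 CPM in mKO replicates 1 to 3, against 19.2, 16.5 and 15.3 CPM in WT replicates 1 to 3. Replicate 2 of mKO was the highest of the 6 libraries and replicate 1 of mKO the lowest. On the log2 scale the difference was 0.01 ± 0.18 (SE; edgeR adjusted p = 0.973), with a 95% interval for the mKO over WT fold of 0.79 to 1.28. It turned to -0.23 (edgeR adjusted p = 0.302) without mKO replicate 2 and was called higher with library totals (log2 0.47, edgeR adjusted p = 0.0375). The summed level of 6 Schwann cell markers was 17.3, 11.5 and 45.8 CPM in mKO replicates 1 to 3, against 22.6, 28.4 and 32.9 CPM in WT replicates 1 to 3. None of the 6 was called, though 3 were called lower without mKO replicate 3. Their part in the Atp1b2 values was not tested.

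Atp1b3, for a beta subunit found in most cell types, was not called either. The gene (ENSMUSG00000032412) is on chromosome 9, minus strand, at 96332655 to 96364442. It had 25.3, 23.6 and 25.7 CPM in mKO replicates 1 to 3, against 29.8, 22.5 and 30.8 CPM in WT replicates 1 to 3. The mKO libraries fell inside the WT range, whose low end was WT replicate 2 alone. On the log2 scale the difference was -0.16 ± 0.13 (SE; edgeR adjusted p = 0.374), with a 95% interval for the fold of 0.751 to 1.07. It was called lower without WT replicate 2 (log2 -0.29, edgeR adjusted p = 0.045) and had the opposite sign with library totals (log2 0.31, edgeR adjusted p = 0.0632).

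**Figure D2:**
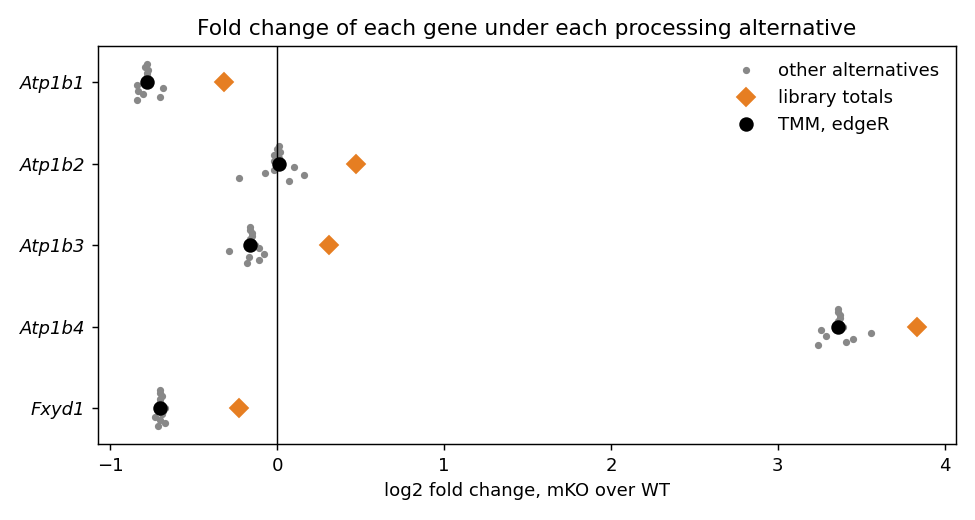
Log2 fold change of mKO over WT for each gene (rows) from edgeR with TMM factors (black circles), with library totals (orange diamonds) and under the other 13 alternatives (grey points). Atp1b4 lies between 3.24 and 3.83 under all 14 alternatives and Atp1b1 between -0.84 and -0.32. Atp1b2 falls on either side of 0, and Atp1b3 lies below 0 except with library totals (0.31).

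Levels per kilobase of exon put the genes on a common scale. In mKO muscle the order was Fxyd1 at 74.9 ± 2.37, Atp1b1 at 21.3 ± 2.16, Atp1b4 at 12.6 ± 1.87, Atp1b3 at 10.4 ± 0.461 and Atp1b2 at 4.18 ± 1.16 CPM per kb (SD, n = 3). The ranges of neighbours did not overlap, and the smallest gap was that between Atp1b4 and Atp1b3. In WT muscle the order was Fxyd1 at 121 ± 4.83, Atp1b1 at 36.6 ± 4.42, Atp1b3 at 11.6 ± 1.9, Atp1b2 at 4.16 ± 0.488 and Atp1b4 at 1.22 ± 0.271 TMM-scaled CPM per kb (SD, n = 3). WT replicate 2 had the lowest Atp1b3 and the highest Atp1b1, and the ranges of neighbours in this order did not overlap. Atp1b4 thus stood above both Atp1b3 and Atp1b2 in mKO and below every other member in WT. It was above Atp1b3 in each mKO library, with 11.2, 11.9 and 14.7 CPM per kb for Atp1b4 beside 10.6, 9.88 and 10.7 CPM per kb for Atp1b3 in replicates 1 to 3. This order is that of gene-level counts over all listed exons, so isoforms with unused exons would be set too low. Levels and shares of Atp1b1 would also be too low if reads on the 575 exon bases shared with Nme7 were left uncounted.

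The make-up of the beta transcripts, which does not depend on scaling between libraries, differed most for Atp1b4 and Atp1b1. Atp1b4 took 23.9, 25.8 and 28% of the counts per kb of the 4 beta genes in mKO replicates 1 to 3, against 1.98, 2.7 and 2.11% in WT replicates 1 to 3. Atp1b1 took 46.6, 41 and 44.2% in mKO replicates 1 to 3, against 65.1, 73.6 and 65.9% in WT replicates 1 to 3. Neither gene's share overlapped between the groups. The share of Atp1b3 was 21.5 ± 1.09% in mKO and 21.8 ± 4.51% in WT, and that of Atp1b2 was 8.68 ± 2.74% in mKO and 7.77 ± 1.07% in WT (SD, n = 3 each). For Atp1b3 and Atp1b2 the groups overlapped. Shares are parts of a whole, so a larger share of Atp1b4 by itself lowers those of the other genes. The ratio of Atp1b3 to Atp1b1 in counts per kb does not involve Atp1b4. It was 0.485, 0.521 and 0.463 in mKO replicates 1 to 3, against 0.368, 0.226 and 0.377 in WT replicates 1 to 3, without overlap.

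**Figure D3:**
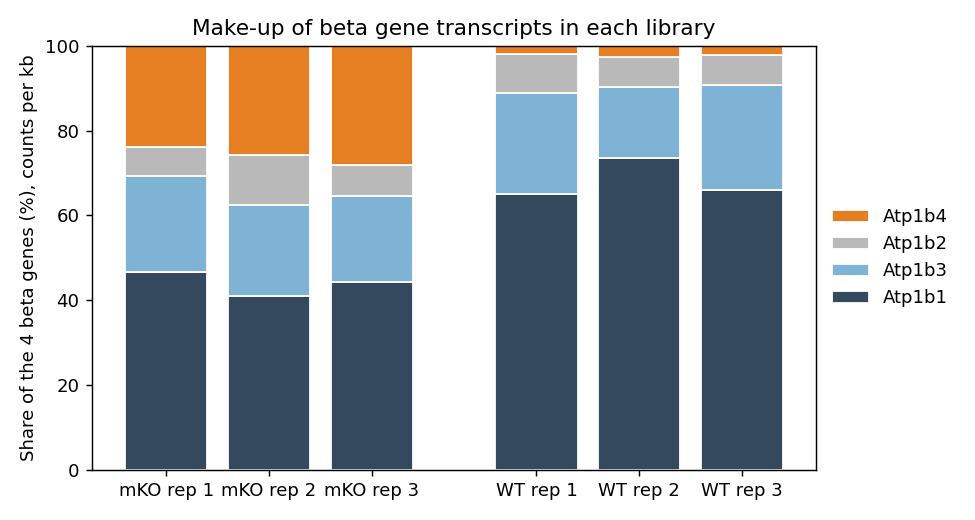
Share of each beta gene in the counts per kb of exon of the 4 beta genes (%), 1 stacked bar per library, mKO replicates 1 to 3 left of WT replicates 1 to 3. The Atp1b4 segment is 23.9 to 28% in mKO and 1.98 to 2.7% in WT, and the Atp1b1 segment is 41 to 46.6% in mKO and 65.1 to 73.6% in WT.

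Summed over the 4 beta genes, the level was 46.8, 46.3 and 52.5 CPM per kb in mKO replicates 1 to 3, against 52.2, 56.7 and 52 CPM per kb in WT replicates 1 to 3, and the groups overlapped with TMM factors. With library totals the direction turned: the sum was 56.1, 54.1 and 60.6 CPM per kb in mKO replicates 1 to 3, against 44.8, 48.2 and 43.9 CPM per kb in WT replicates 1 to 3, with no overlap. Without Atp1b4, whose product is not part of the pump in placental mammals, the sum of the other 3 was 35.9 ± 1.76 CPM per kb in mKO and 52.4 ± 2.43 CPM per kb in WT (SD, n = 3 each). The groups did not overlap with TMM factors. They overlapped with library totals, at 42.1 ± 1.81 CPM per kb in mKO and 44.6 ± 2.05 CPM per kb in WT (SD, n = 3 each), so the direction and size of the summed beta level depend on the scaling. The ratio of Fxyd1 to Atp1b1 in counts per kb was 3.45, 3.82 and 3.32 in mKO replicates 1 to 3, against 3.7, 2.93 and 3.39 in WT replicates 1 to 3, with overlapping groups. That of Fxyd1 to the sum of the 4 beta genes, Atp1b4 included, was 1.61, 1.57 and 1.47 in mKO replicates 1 to 3. In WT replicates 1 to 3 it was 2.41, 2.16 and 2.24, without overlap. The ratio of Atp1b1 to Atp1b2 was 5.42 ± 1.73 in mKO and 8.91 ± 1.57 in WT (SD, n = 3 each), and the highest mKO library (6.74) was just under the lowest WT library (7.23).

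Of 6 other FXYD genes listed, 4 were tested, 1 rose, 1 fell and 2 were not called. Their median log2 fold change was -0.23 against 0.02 for all genes tested. Over all genes tested, 18.2% were called higher and 18.9% lower, and these shares stand beside the counts of each list below. With so few FXYD genes, nothing is read from their counts. Fxyd6, a regulator best known from brain, had 10.8, 11.8 and 10.9 CPM in mKO replicates 1 to 3, against 36.5, 32.7 and 32.6 CPM in WT replicates 1 to 3. It fell 3.04-fold (log2 -1.61, SE 0.11, edgeR adjusted p = 9.24e-07), a larger fold than that of Fxyd1. Fxyd5, which encodes dysadherin and is known from epithelia and other nonmuscle cells, rose to 9.52 ± 2.12 CPM in mKO against 3.92 ± 0.318 CPM in WT (SD, n = 3 each; log2 1.28, edgeR adjusted p = 0.000234). Fxyd2, the gamma subunit of kidney, averaged 0.662 CPM in mKO and 0.442 CPM in WT, and Fxyd7, known from brain, averaged 0.144 CPM in mKO and 0.309 CPM in WT (edgeR adjusted p = 0.323 and 0.193). Fxyd3 had 11 counts over the 3 mKO libraries and 8 over the 3 WT libraries, and Fxyd4 had none in any library. The H,K-ATPase genes Atp4a, Atp4b and Atp12a, relatives of the pump in stomach and other epithelia, had 0 counts in every library.

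Of 13 listed partners, anchors and kinases of the pump, 11 were tested, of which 1 rose and 4 fell (median log2 fold change -0.11). The count that rose was 2 without WT replicate 1, with no filter on low counts and with the stricter filter. With library totals the counts were 5 higher and 2 lower. Nkain1, of a family of membrane proteins that bind the beta subunit, had 0.837, 1.08 and 0.891 CPM in mKO replicates 1 to 3, against 6.18, 6.47 and 4.42 CPM in WT replicates 1 to 3. This was 6.05-fold lower (log2 -2.60, edgeR adjusted p = 5e-06). Sgk1, a kinase that promotes sodium transport, fell to 37.6 ± 2.5 CPM in mKO against 104 ± 13.3 CPM in WT (SD, n = 3 each; log2 -1.46, edgeR adjusted p = 3.25e-06). Add3, for gamma-adducin of the membrane skeleton, had a log2 fold change of -0.53 (edgeR adjusted p = 0.00137), not called with library totals (-0.06, edgeR adjusted p = 0.623). The kinase gene Sik1, part of a sodium-sensing response of the pump in cultured epithelial cells, rose (log2 0.81, edgeR adjusted p = 0.00272).

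Of 13 listed carriers that run on the sodium gradient, 12 were tested, of which 3 rose and 3 fell. Among all genes tested 18.2% were called higher and 18.9% lower, and nothing is read from the carrier counts. Their median log2 fold change was 0.15, and with library totals 9 were higher and 2 lower. The 2 sodium-calcium exchangers that were tested went opposite ways. Slc8a3, the exchanger abundant in skeletal muscle, had 115, 130 and 115 CPM in mKO replicates 1 to 3, against 48.6, 38.7 and 33.8 CPM in WT replicates 1 to 3 (log2 1.57, edgeR adjusted p = 4.5e-06). Slc8a1, the exchanger of heart, fell to 18.5 ± 3.85 CPM in mKO against 33.7 ± 7.89 CPM in WT (SD, n = 3 each; log2 -0.86, edgeR adjusted p = 0.00266), a call lost with library totals (-0.40, edgeR adjusted p = 0.0887). The sodium-bicarbonate cotransporter gene Slc4a4 (log2 -1.19, edgeR adjusted p = 9.53e-05) and the sodium-potassium-chloride cotransporter gene Slc12a2 (log2 -0.81, edgeR adjusted p = 0.00027) fell, under library totals as well.

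BetaM has been reported to bind the transcriptional coregulator Snw1 and to act on Smad7 and Myod1. These 3 genes are named for that link and not by size. Snw1 averaged 93 ± 3.36 CPM in mKO and 95.3 ± 5.33 CPM in WT (SD, n = 3 each), with a log2 fold change of -0.03 (edgeR adjusted p = 0.825) and 0.43 with library totals (edgeR adjusted p = 0.00414). Smad7, an inhibitor of TGF-beta signalling, averaged 3.13 ± 0.0781 CPM in mKO and 3.4 ± 0.455 CPM in WT (SD, n = 3 each; log2 -0.12, edgeR adjusted p = 0.661; 0.34 and edgeR adjusted p = 0.151 with library totals). Neither of these was called with TMM factors. Myod1, the myogenic transcription factor gene, rose: it had 11, 9.81 and 9.23 CPM in mKO replicates 1 to 3, against 6.85, 7.02 and 7.05 CPM in WT replicates 1 to 3. Its log2 fold change was 0.52 (edgeR adjusted p = 0.0112; 0.0536 without mKO replicate 1). Of the 10 genes in this list 3 rose and 2 fell (median log2 fold change -0.08), and with library totals 6 were higher and 1 lower. The ligand gene Tgfb1 (log2 1.08) rose, and the signal transducer gene Smad3 (-0.94) and the receptor gene Tgfbr1 (-0.55; -0.09 and not called with library totals) fell.

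Fibre programmes are set beside these genes because beta subunits differ between fibre types and ages. All 9 embryonic and perinatal muscle genes listed rose (median log2 fold change 3.17; 9 with library totals). Myl4, the embryonic light chain gene, had a log2 fold change of 3.38 and Tnnt2, for embryonic and cardiac troponin T, one of 3.17. That of Atp1b4, 3.36, lay between them. Myh3, for the embryonic heavy chain (5.58), and the adhesion molecule gene Ncam1 (2.33) lay above and below these genes. All 10 fast-fibre genes listed fell (median -1.09; 9 with library totals). Among them, Myh4 was at -1.57 and Pvalb, for parvalbumin, at -1.41, larger falls than that of Atp1b1. Of 10 slow-fibre genes 4 rose and 2 fell (median 0.63; 6 and 2 with library totals), among them Casq2 (2.22), Csrp3 (1.53) and Tnnt1 (1.93), which rose, and Myl2 (-1.27), which fell but was not called by DESeq2 (adjusted p = 0.0679). The count of slow-fibre genes that fell was 0 with DESeq2 and 1 without WT replicate 2, mKO replicate 1 or mKO replicate 3. Replicate 2 of mKO stood above the other mKO libraries for Myl2 (67.9, 161 and 48 CPM in mKO replicates 1 to 3). The same held for Tnnt1 (136, 226 and 135 CPM), but not for Casq2 (277, 266 and 290 CPM) or Csrp3 (285, 212 and 251 CPM). The edgeR adjusted p of the genes named in this paragraph ranged up to 0.00868, and these lists were chosen with earlier results of these data known.

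**Figure D4:**
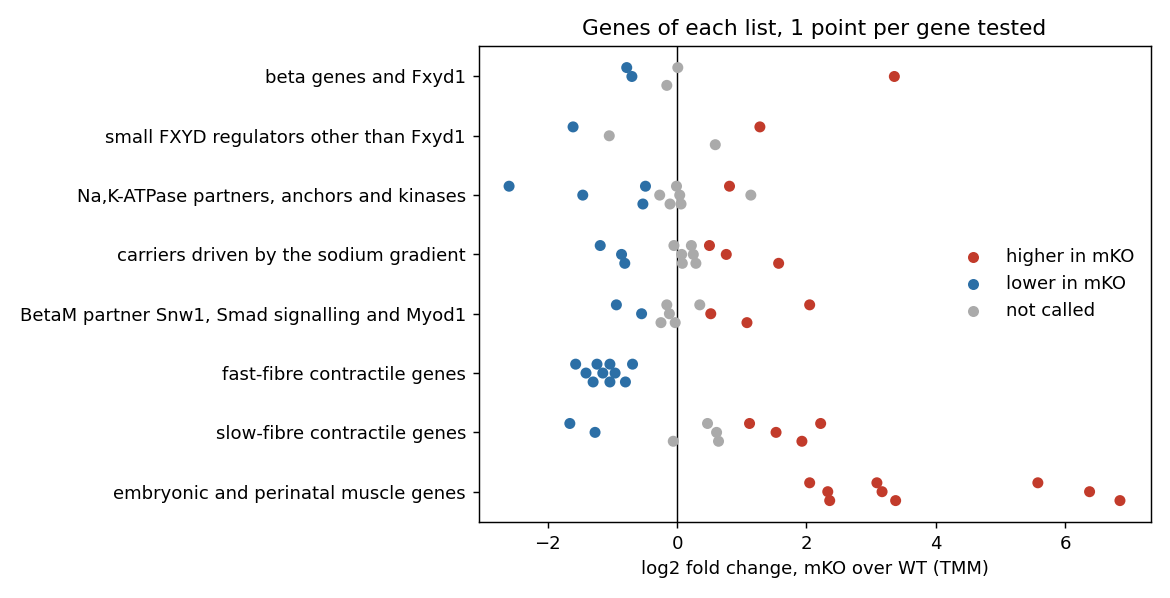
Log2 fold change of mKO over WT with TMM factors for each tested gene of the lists (rows), 1 point per gene, coloured by the edgeR call at an adjusted p of 0.05. The beta gene Atp1b4, at 3.36, lies in the range of the embryonic and perinatal genes, and all 10 fast-fibre genes lie left of 0.

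Markers of other cell types differed between the groups, and their part in the results was not tested. All 7 macrophage markers rose, with summed CPM of 495 to 829 in mKO and 230 to 283 in WT, and all 7 endothelial markers fell, with 153 to 171 CPM in mKO and 248 to 335 CPM in WT. With library totals 2 of the endothelial markers were still called, and 4 without mKO replicate 1. Of 6 markers of fibro-adipogenic cells 2 rose and 4 were not called (2044 to 2299 CPM in mKO and 1614 to 1762 CPM in WT). The count that rose was 5 with library totals and 4 with no filter on low counts. It was 1 with DESeq2 and without mKO replicate 3, WT replicate 1 or WT replicate 3. Most of the rise in this sum is Col3a1, at 1022 ± 142 CPM in mKO and 487 ± 41.5 CPM in WT (SD, n = 3 each). Of 6 markers of smooth muscle and pericytes 1 rose and 2 fell (357 to 392 CPM in mKO and 663 to 725 CPM in WT), and with library totals 2 were higher and 1 lower. Most of this sum is Rgs5, a pericyte gene, at 258 ± 16.8 CPM in mKO and 581 ± 28.4 CPM in WT (SD, n = 3 each). Of 4 satellite cell markers 2 rose (22.8 to 26 CPM in mKO and 15.3 to 18.8 CPM in WT), with 3 higher with library totals, 0 without mKO replicate 1 or mKO replicate 3, and 1 without mKO replicate 2, WT replicate 1 or WT replicate 3. No adipocyte marker of 3 was called (10 to 23.9 CPM in mKO and 11.1 to 26.2 CPM in WT), of 2 tested erythroid markers 1 fell (2 without mKO replicate 1), and T cell markers summed to at most 0.216 CPM in mKO and 0.123 CPM in WT. No marker listed was at 0 in every library. All 8 skeletal muscle markers fell (6 with library totals), and in whole muscle fewer cells of a type and less RNA per cell cannot be told apart.

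For each of the 5 genes, the genes with the most similar profiles across the 6 libraries were listed. Likeness was measured as the root mean square difference of mean-centred log2 CPM, over 11921 named genes with a mean of at least 1 CPM. With 11921 candidates and only 6 values per gene, near matches can arise from a similar fold between the groups alone. Whether the matches below are closer than those of other genes was not tested, and nothing is read from which genes they are. Closest to Atp1b1 were Atp5g1, for a subunit of ATP synthase (0.043 log2 units; log2 fold change -0.85), and Idh3b, for a subunit of isocitrate dehydrogenase (0.052; -0.78). Closest to Fxyd1 were Cox7c, for a subunit of cytochrome c oxidase (0.044; -0.70), and Idh3g, for another subunit of isocitrate dehydrogenase (0.050; -0.69). Closest to Atp1b4 were Ms4a4c (0.172; 4.01), at only 0.132 CPM in WT, and Cenpf, for a centromere protein (0.246; 3.26). These distances were larger than those of the other members. Only 193 genes were called higher by at least 8-fold, so few candidates had a fold like that of Atp1b4, and nothing is read from the larger distances. Atp1b2 was followed by Grip2 (0.052; 0.05) and Zfhx4 (0.078; 0.08), and Atp1b3 by Ube2q1 (0.036; -0.12) and Zfp729a (0.041; -0.10).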

How the data were processed

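The authors deposited 1 table of raw gene counts for each of 6 libraries. The submitters' processing notes name STAR 2.5.2b, Trimmomatic 0.36 and, from Subread 1.5.2, featureCounts, with the GRCm38 build. Per the labels' protocols Trizol was used to extract RNA and a NEBNext Ultra RNA kit, whose name does not imply strand marking, to prepare libraries. Counting of pairs, strand and multiply mapped reads is not given in the sources used here. Symbols matched 48970 of 49315 gene identifiers.

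Groups came from the sample titles. All genes were fitted together with edgeR 4.0.16 (R 4.3.3; quasi-likelihood test), with group as the only term, TMM factors, the default expression filter (16650 genes kept) and Benjamini-Hochberg adjustment, called at 0.05. The steps were run on simulated data in which few genes changed, as many up as down. The choice between TMM factors and library totals was not tested there. CPM uses TMM-scaled library sizes, standard errors come from the F statistic, and levels per kb use the exon length listed in the count files. Replicates differed beyond sampling noise (chi-square per degree of freedom 20.9 to 57.7). The precision of low values is limited by counting.

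The members and gene lists were chosen with earlier results of these data known. Named genes were the members, Hnrnpu, up to 4 genes of each list by lowest p and 2 genes with the profile most like each member. Nme7 and the genes named for their link to BetaM fall outside this rule, and 1 list gene that the rule takes is not reported here. Alternatives were DESeq2 1.42.0, limma-voom (limma 3.58.1), library totals, RLE factors, TMM factors computed without mitochondrial genes and the 10 most abundant genes, no filter, a filter at 1 CPM in 3 libraries, a replicate block and leaving out each library.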

Additional observations from a re-analysis of the deposited data

How the results depend on the processing

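Under 14 alternatives Atp1b4 stayed higher and Atp1b1 lower, each called in all 14, and Fxyd1 stayed lower and was called in 13. Library totals, which shifted the median of all genes by 0.47 on the log2 scale, changed the most calls. They gave 8159 genes higher and 1124 lower, 36 list genes higher, Atp1b2 0.47 (now called), Atp1b3 0.31 and Fxyd1 -0.23 (no longer called), and turned Hnrnpu to 0.27, Nme7 to 0.18, Snw1 to 0.43, Smad7 to 0.34, Ube2q1 to 0.35 and Zfp729a to 0.36. The levels per kb were then 25 in mKO and 31.2 in WT for Atp1b1, 88 in mKO and 103 in WT for Fxyd1, 12.2 for Atp1b3 in mKO, 14.8 for Atp1b4 in mKO and 3.54 for Atp1b2 in WT. In an alternative added after seeing the data, they turned the mKO minus WT difference of the summed 4 beta genes to 11.3 CPM per kb, against -5.12 with TMM factors, and that of the sum without Atp1b4 to -2.43, against -16.5. The value of Atp1b2 lay near 0 and turned to -0.02 with limma-voom. Leaving out each library moved it between -0.23 and 0.16, Atp1b3 between -0.29 and -0.08 (called without WT replicate 2), Snw1 between -0.06 and 0.01, Grip2 between -0.19 and 0.23 and Zfhx4 between -0.10 and 0.19, with -0.00 for Zfhx4 without WT replicate 3 and, for Grip2, -0.05 without that library. Without division by exon length the beta shares were 40.9% for Atp1b1, 15.5% for Atp1b3 and 32.9% for Atp1b4 in mKO, and 10.5% for Atp1b2, 17.2% for Atp1b3 and 3.13% for Atp1b4 in WT. The cause of the other shifts was not tested.

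Same-numbered libraries did not deviate together (correlations 0.018, -0.002 and 0.022), and pairs of other numbers ran from -0.058 to 0.035. No sign of pairing by number was seen, but with 3 libraries per group a weak one could be missed. With the replicate number as a block, 2707 genes were higher and 2812 lower, Atp1b2 was at -0.02, and the calls of the 5 genes did not change.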
